A study of Mus musculus with 6 samples.

Results

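The 10 genes described here encode transcription factors of the CREB/ATF group and the CRTC coactivators that bind them: Creb1, Atf1, Crem, Crtc1, Crtc2, Crtc3, Atf2, Atf4, Creb3 and Creb5. They were chosen by name, as factors that recruit the histone acetyltransferase CBP and as their coactivators. The rule uses no measured value, though earlier results of these data were known when it was set. The deposited table holds 55471 genes, and all 10 were among its 17981 genes with enough counts to be tested. Total RNA of the hippocampus was sequenced in 3 Control and 3 CBP-ifKO libraries from C57BL/6 mice aged 3 to 6 months. CBP-ifKO animals carry Crebbp_flox and Camk2a_creERT2, so that tamoxifen removes CBP from forebrain excitatory neurons in the adult. Control animals are littermates that received the same 5 administrations of tamoxifen. The treatment label and the study's methods call them negative for creERT2, whereas their description label reads Camk2a_creERT2. Per the study's methods each library is a pool of hippocampi from females. Because the driver acts in excitatory neurons only, other cells of the tissue keep an intact Crebbp.

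CREB binds the cAMP response element (CRE) in promoters, and once phosphorylated by kinases that respond to cAMP or calcium it recruits CBP or its paralogue p300. CRTC coactivators wait in the cytosol while phosphorylated, move to the nucleus when calcineurin removes the phosphate, and then bind CREB on DNA. In hippocampal neurons the pathway links synaptic activity to transcription of neuropeptides, growth factors and other activity-regulated genes.

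None of the 10 genes passed the threshold in CBP-ifKOs. edgeR called 0 of 10 at an adjusted p under 0.05, beside 6.39% of all genes tested (4.99% lower and 1.4% higher in CBP-ifKO). DESeq2 and limma-voom also called 0 of 10. At an unadjusted p under 0.05 edgeR and limma-voom each counted 2 of them, Crtc1 and Crtc2, and DESeq2 counted 1, Crtc1, where edgeR counted 21.2% of all genes. Log2 fold changes, CBP-ifKO against Control, ran from -0.28 for Crtc1 to 0.26 for Crtc2, with 6 genes below 0 and 4 above. The median size of the log2 fold change, sign left aside, was 0.15 in the 10 genes and 0.14 over all genes tested. Over the 10 genes, the 95% intervals of the CBP-ifKO level ran at their widest from 70.9% to 142% of the Control level. In 3 of the 10 (Atf1, Crtc2 and Atf2) the CPM (counts scaled by TMM to a common library size) of the genotypes did not overlap, beside 25.6% of all genes tested.

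**Figure D1:**
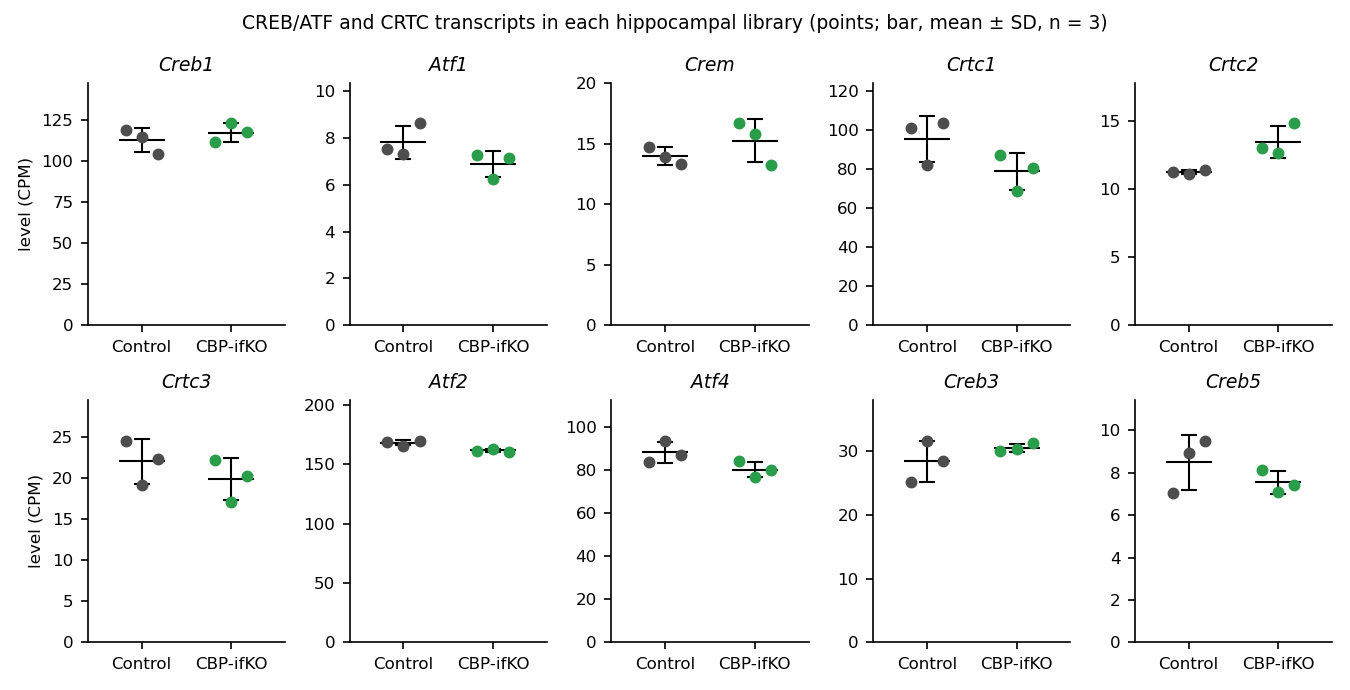
CPM of each of the 10 transcripts (y axes from 0) in the 3 Control (grey) and 3 CBP-ifKO (green) libraries, with the mean and SD as bars. The largest shifts in proportion are those of Crtc1, from 95.6 to 78.8 CPM, and Crtc2, from 11.3 to 13.5 CPM, and the points of most other genes lie interleaved.

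Library totals ran from 10199008 to 14950257 counts. Crebbp, the floxed gene (chromosome 16, 4081328 to 4213997), was at 209, 156 and 208 CPM in Control libraries 1 to 3 and at 109, 87.1 and 99.4 CPM in CBP-ifKO libraries 1 to 3. It was thus lower in every CBP-ifKO library (log2 fold change -0.96, SE 0.10, edgeR adjusted p 3.63e-05), and the counts take all exons together, floxed or not. Esr1, whose ligand-binding part is carried by the inducible recombinase, measured 6.07 ± 0.36 CPM in Control libraries against 66.7 ± 2.91 CPM (SD, n = 3) in those of CBP-ifKOs, and was higher in every CBP-ifKO library. The transgene and the loss of CBP thus go together in these libraries, and their effects cannot be told apart. Markers of excitatory neurons were present, with 0 of 6 called (median log2 fold change -0.02). Their sum ran from 2543 to 2965 CPM over Control libraries and from 2682 to 3068 CPM over those of CBP-ifKOs. Camk2a, whose promoter drives the recombinase, averaged 1939 CPM over the former and 2066 CPM over the latter. By the study's account the driver construct also carries DNA beside that promoter. Whether the construct adds to Camk2a counts was not tested, so a sum that includes this gene cannot show equal content of excitatory neurons. Markers of hippocampal subfields summed to 472 to 499 CPM in Control and 376 to 405 CPM in CBP-ifKO. Of these, 3 of 8 (37.5%) were lower (median -0.25), and 1 of 6 interneuron markers (16.7%) was lower (median -0.13). Over all genes tested 4.99% were called lower and 1.4% higher. None of 6 markers each of astrocytes, microglia, oligodendrocytes, endothelium or thalamus was called (medians -0.08, -0.07, -0.07, -0.07 and -0.06). The astrocyte markers summed to 1770.4 to 1815 CPM in Control libraries and 1642 to 1717 CPM in CBP-ifKO libraries, and the thalamic ones, opposite in direction to their median, to 142 to 151 and 156 to 161 CPM. The sums of both lists did not overlap between genotypes, nor did those of the subfield and interneuron markers. For single genes, 25.6% of all tested did not overlap. Of 3 choroid plexus markers tested 0 were called (median -0.56), with Kcne2 at 0.278 CPM, and of 5 striatal markers 1 was higher (median -0.38), with Adora2a at 0.716 CPM. In bulk tissue, fewer cells of a type and less RNA per cell cannot be told apart.

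CREB itself was measured most precisely among the 3 factors that share the kinase-inducible domain through which CBP is recruited. Creb1 (ENSMUSG00000025958, GRCm38 chromosome 1, 64532645 to 64604548, plus strand) was at 119, 115 and 104 CPM in Control libraries and 111, 123 and 118 CPM in CBP-ifKO. The groups overlapped, with Control library 3 lowest and CBP-ifKO library 2 highest. The means were 113 ± 7.41 and 117 ± 5.82 CPM (SD, n = 3). edgeR gave a log2 fold change of 0.06 with an SE of 0.067 and an adjusted p of 0.684. The CBP-ifKO level was 104% of Control (95% interval 94.4% to 115%).

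Atf1, the closest paralogue of CREB and its partner in heterodimers, was a low transcript. Atf1 (chromosome 15, 100227819 to 100261244, plus strand) was at 7.51, 7.30 and 8.63 CPM in Control libraries and 7.27, 6.24 and 7.16 CPM in CBP-ifKO. The highest CBP-ifKO library lay just under the lowest Control library, so the groups did not overlap. Its log2 fold change of -0.19 had an SE of 0.15 and an edgeR adjusted p of 0.515, and with 75 to 95 counts per library its interval reached from 70.9% to 109% of Control.

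Crem encodes activators and, from an internal promoter, the inducible repressor ICER, and these counts pool the isoforms. Crem (chromosome 18, 3266048 to 3337748, minus strand) was at 14.7, 13.9 and 13.3 CPM in Control libraries and 16.7, 15.8 and 13.2 CPM in CBP-ifKO. CBP-ifKO libraries 1 and 2 were above every Control library and CBP-ifKO library 3 was below them all. The difference, 0.12 on the log2 scale (SE 0.12), had an edgeR adjusted p of 0.614. Crem shares 8.01% of its exon bases with Gm6225 on the other strand, and whether counting used strand is not given in the sources used here.

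Per length, Creb1 made up most of this trio in both genotypes. As a share of the summed RPKM (CPM per 1000 exonic bases) of Creb1, Crem and Atf1, Creb1 took 62.4 ± 2.13% in Control and 63.8 ± 2.56% in CBP-ifKO, Crem 18.1 ± 0.30% and 19.3 ± 2.10%, and Atf1 19.5 ± 2.37% and 16.9 ± 1.67% (SD, n = 3). The sum itself was 13.1 ± 0.47 RPKM in Control and 13.4 ± 0.26 RPKM in CBP-ifKO. Differences in these shares were thus of the size of the spread between libraries.

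**Figure D2:**
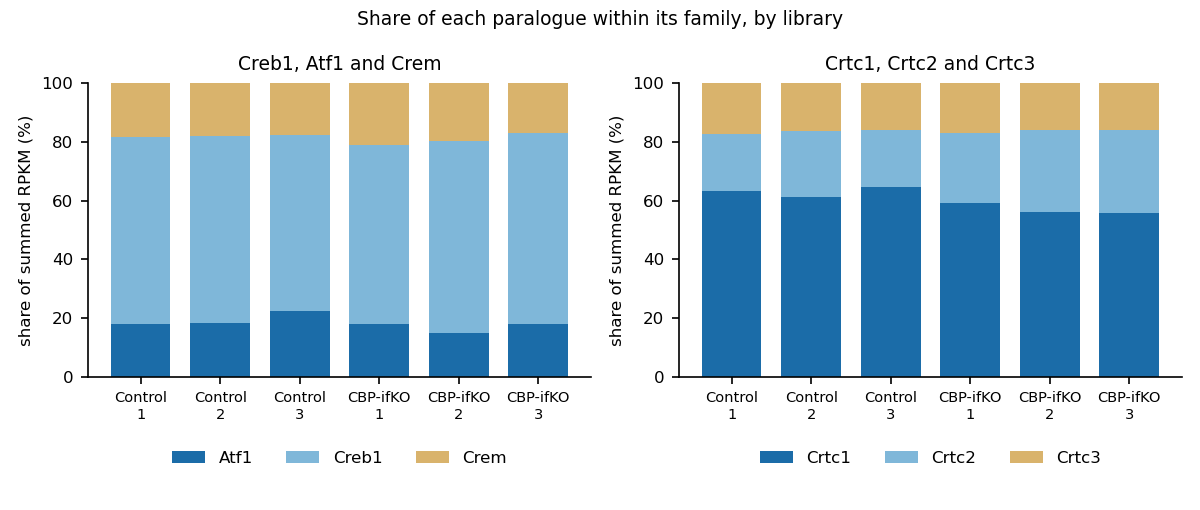
Share (percent of summed RPKM) of each paralogue in Creb1, Atf1 and Crem (left) and in Crtc1, Crtc2 and Crtc3 (right), with 1 bar per library. Crtc1 takes 61.2% to 64.6% in Control libraries and 55.9% to 59.0% in CBP-ifKO libraries, while the left bars differ little.

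Among the coactivators, Crtc1 and Crtc2 stood in opposite directions without passing the threshold. Crtc1, the predominant CRTC of neurons (chromosome 8, 70382355 to 70439579, minus strand), was at 101, 82.1 and 103 CPM in Control libraries and 87.4, 68.7 and 80.3 CPM in CBP-ifKO. Control library 2 fell within the CBP-ifKO range and the other Control libraries lay above it. The means were 95.6 ± 11.7 and 78.8 ± 9.42 CPM (SD, n = 3), and the CBP-ifKO level was 82.3% of Control (95% interval 71.7% to 94.4%). The log2 fold change was -0.28 (SE 0.094), with an edgeR adjusted p of 0.0864 and a DESeq2 adjusted p of 0.0867.

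The Crtc1 value depended on single libraries and on the joint removal of GC and length trends. Without Control library 2 it was -0.37 and passed the threshold (edgeR adjusted p 0.00770), and with no filter on low counts it was -0.27 and also passed (0.00867). Without CBP-ifKO library 2 it was -0.18 (0.359), and over the other omissions it ran from -0.36 to -0.22 without passing. Once the trends of each library on GC content and on length had been taken out, the log2 fold change was -0.14 (adjusted p 0.372). The longest Crtc1 transcript holds 56.5% GC. Its SD within groups, 0.18 on the log2 scale, compared with a median of 0.081 for the 1871 genes of similar level. Replicate 2 was the lowest library of its group for Crtc1 and Crtc3, and also for Crebbp and Ep300.

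Crtc2, best known as the CRTC of liver, where it drives gluconeogenesis (chromosome 3, 90254163 to 90264125, plus strand), was at 11.3, 11.1 and 11.4 CPM in Control libraries and 13.0, 12.6 and 14.8 CPM in CBP-ifKO. Every CBP-ifKO library was above every Control library. The Control SD was 1.45% of its mean, below the 8.30% of counting error alone, so the Control libraries lay closer together than counting would give. The means were 11.3 ± 0.16 and 13.5 ± 1.17 CPM (SD, n = 3), and edgeR gave an adjusted p of 0.220 for a log2 fold change of 0.26 (SE 0.12). The level was 120% of Control (95% interval 101% to 142%). The log2 fold change was 0.33 with GC and length trends removed (adjusted p 0.0934), and Crtc2 passed the threshold under none of the alternatives run.

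Crtc3, the remaining paralogue (chromosome 7, 80586627 to 80688877, minus strand), was at 24.6, 19.2 and 22.4 CPM in Control libraries and 22.3, 17.2 and 20.2 CPM in CBP-ifKO. The groups overlapped. On the log2 scale the difference was -0.16 with an SE of 0.12 (edgeR adjusted p 0.494), and with GC and length trends removed it was -0.0087.

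Within the summed RPKM of the 3 CRTC genes, Crtc1 took 63.3%, 61.2% and 64.6% in Control and 59.0%, 56.0% and 55.9% in CBP-ifKO. The share of Crtc2 was 19.2%, 22.6% and 19.5% in Control and 23.9%, 28.1% and 28.1% in CBP-ifKO. In both cases the genotypes did not overlap, whereas the share of Crtc3 was 16.5 ± 0.82% and 16.3 ± 0.66% (SD, n = 3). The sum of the 3 genes was 13.5 ± 1.34 RPKM in Control and 12.4 ± 1.22 RPKM in CBP-ifKO. These shares come from genes that were first seen to differ and are given as a description with no test.

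Atf2, which dimerises with Jun proteins and is activated by stress kinases, was the steadiest of the 10 transcripts. Atf2 (chromosome 2, 73816509 to 73892639, minus strand) was at 169, 166 and 170.1 CPM in Control libraries and 162, 163 and 161 CPM in CBP-ifKO. All 3 CBP-ifKO libraries were below all Control libraries, although the step was small. The means were 168 ± 2.23 and 162 ± 1.41 CPM (SD, n = 3), 96.1% of Control (95% interval 88.6% to 104%), and the log2 fold change was -0.06, with an SE of 0.055 and an edgeR adjusted p of 0.614. Its SD within groups was 0.016 on the log2 scale, against a median of 0.069 for genes of similar level, and the fit moderates such a spread towards that of other genes. In percent of the mean, the SD was 1.32 in Control and 0.87 in CBP-ifKO, both below the 2.28 of counting error alone. Exons of Atf2 share 2.04% of their bases with Gm27421 on the same strand.

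Atf4, the effector of the integrated stress response that drives amino acid synthesis and transport genes, leaned lower. Atf4 (chromosome 15, 80255184 to 80257541, plus strand) was at 84.1, 93.9 and 87.1 CPM in Control libraries and 84.2, 77.0 and 80.1 CPM in CBP-ifKO. CBP-ifKO library 1 was within the Control range and the other CBP-ifKO libraries were below it. edgeR gave an adjusted p of 0.253 for the log2 fold change of -0.14 (SE 0.067), at 90.9% of Control (95% interval 82.3% to 100.3%), and -0.05 with GC and length trends removed. ATF4 is mainly set at the level of translation, which RNA counts do not measure.

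Creb3, a membrane-bound factor of the endoplasmic reticulum that is released by proteolysis (chromosome 4, 43562332 to 43567060, plus strand), was at 25.2, 31.7 and 28.5 CPM in Control libraries and 30.0, 30.4 and 31.3 CPM in CBP-ifKO. The CBP-ifKO libraries lay inside the wider Control range. Their difference of 0.10 on the log2 scale (SE 0.094) had an edgeR adjusted p of 0.590, and 15.2% of its exon bases overlap Tln1 on the other strand.

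Creb5, a relative of Atf2 (chromosome 6, 53287270 to 53700376, plus strand), was at 7.04, 8.93 and 9.52 CPM in Control libraries and 8.14, 7.10 and 7.41 CPM in CBP-ifKO. Control library 1 was the lowest of all 6 libraries and the groups overlapped. With an SE of 0.15, the log2 fold change of -0.18 had an edgeR adjusted p of 0.551 and an interval from 71.0% to 110.2% of Control. Creb5 has 0.655% of its exon bases in common with Gm25818 on the same strand.

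**Figure D3:**
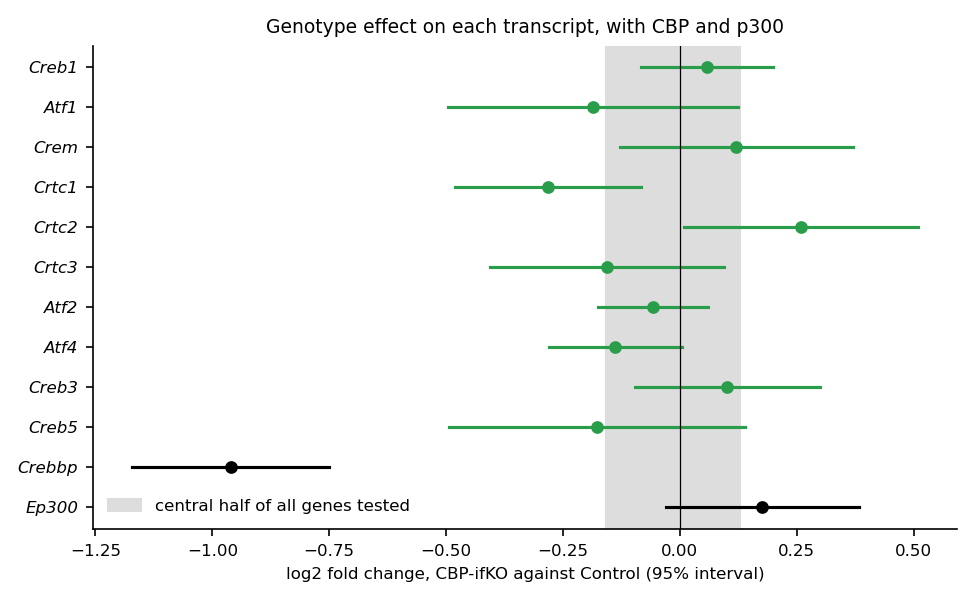
Log2 fold change, CBP-ifKO against Control (x axis), with its 95% interval for the 10 transcripts (green) and for Crebbp and Ep300 (black). The shaded band spans percentiles 25 to 75 of all genes tested, from -0.16 to 0.13, and only the intervals of Crtc1, Crtc2 and Crebbp lie clear of 0.

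Compared per length over all 6 libraries, Atf4 had the highest level of the 10, at 35.8 ± 2.47 RPKM (SD, n = 6), followed by Atf2 at 20.2 ± 0.48 and Creb3 at 12.4 ± 1.01 RPKM. Creb1 (8.36 ± 0.47 RPKM) and Crtc1 (7.80 ± 1.18 RPKM) overlapped, with Creb1 above Crtc1 in 4 of 6 libraries. Crtc2 (3.02 ± 0.35 RPKM) was above Crem (2.48 ± 0.24 RPKM) in 6 of 6 libraries although their ranges met. Crem and Atf1 (2.40 ± 0.25 RPKM) could not be ordered, with Crem above in 3 of 6, and Atf1 was above Crtc3 (2.13 ± 0.27 RPKM) in 5 of 6. Creb5 was lowest at 0.321 ± 0.041 RPKM, apart from all others.

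The genes whose profile over the 6 libraries was nearest to that of Creb1, by the root mean square difference of centred log2 CPM, were 1600014C10Rik (0.014), Derl2 (0.016) and Sp3 (0.020). Their log2 fold changes were 0.07, 0.05 and 0.04. For Crtc1 the nearest were Ciita (0.033), Shisa7 (0.035) and Spred2 (0.042), with log2 fold changes of -0.28, -0.28 and -0.34. None of these 6 passed the threshold, but Shisa7 and Spred2, like Crtc1, did without Control library 2 (edgeR adjusted p 0.00361 and 0.00409). Because the genes were picked for matching profiles over the same libraries, such likeness follows largely from the choice. It is no separate evidence of a shared change.

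Of 13 other genes of the CREB/ATF group 10 were tested, and 1 (10%, beside 6.39% of all genes tested) was lower, with log2 fold changes from -0.43 to 0.99 and a median of -0.08. Atf6, the sensor of unfolded protein in the endoplasmic reticulum, was at 134, 126 and 133 CPM in Control libraries and 106, 108 and 109 CPM in CBP-ifKO. It was lower in every CBP-ifKO library (log2 fold change -0.28, edgeR adjusted p 0.00788), and the call was lost without Control library 3 (0.0558) or CBP-ifKO library 3 (0.0542). Not past the threshold but chosen here after their values were seen were Creb3l3 and Atf6b. Creb3l3, a relative of Creb3, had the largest difference, with 0.939, 0.945 and 0.694 CPM in Control libraries and 1.74, 1.51 and 1.97 CPM in CBP-ifKO. The groups did not overlap and rested on 7 to 24 counts per library (log2 fold change 0.99, edgeR adjusted p 0.0716, and 0.0443 with GC and length trends removed). Atf6b, the paralogue of Atf6, had a log2 fold change of -0.33 (edgeR adjusted p 0.0741), which passed with no filter on low counts (0.0322) or without CBP-ifKO library 3 (0.0377) and was -0.13 with GC and length trends removed. Of the 3 ATF4 partners (Cebpb, Cebpg and Ddit3) 0 were called by edgeR, 0 of them at an unadjusted p under 0.05, with a median of -0.01.

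Of 5 CREB coactivators 1 was called (20%, beside 6.39% of all genes tested), the targeted gene Crebbp (median 0.01). Ep300, which encodes p300, was at 107, 81.2 and 115 CPM in Control libraries and 121, 105 and 116 CPM in CBP-ifKO, with overlapping groups (log2 fold change 0.18, SE 0.098, edgeR adjusted p 0.321). Without Control library 2 this value was 0.048, and it was 0.28 without Control library 3, neither past the threshold. Of 14 CREB kinases 1 (7.14%) was lower (median -0.05): Camk4, the nuclear calmodulin kinase that phosphorylates CREB, was at 73.1, 65.6 and 67.3 CPM in Control libraries and 48.4, 49.6 and 44.8 CPM in CBP-ifKO. All CBP-ifKO libraries were below all Control libraries (log2 fold change -0.53, edgeR adjusted p 3.45e-04), and 2.21% of its exon bases overlap 2310026I22Rik on the other strand.

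Of 16 CRTC regulators 2 (12.5%) were lower and 13 had log2 fold changes below 0 (median -0.11). Ppp3r1, the regulatory subunit of calcineurin, had a log2 fold change of -0.24 (edgeR adjusted p 0.0126) and shares 14.3% of its exon bases with Wdr92 on the same strand. Ywhag, an adaptor of the family that holds phosphorylated CRTCs in the cytosol, had one of -0.22 (edgeR adjusted p 0.0232). The Ppp3r1 call was lost without Control library 3 (adjusted p 0.0902) or CBP-ifKO library 3 (0.122). That of Ywhag was lost without Control library 3 or CBP-ifKO library 2 or 3 (0.108 to 0.150), and with library totals only (0.0627).

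**Figure D4:**
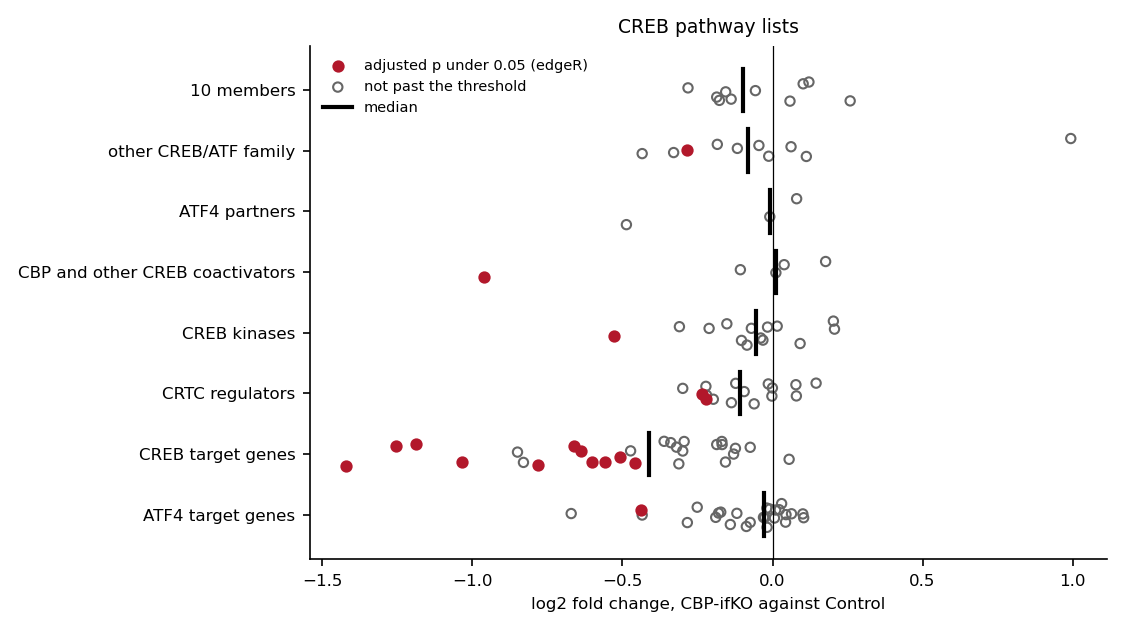
Log2 fold change, CBP-ifKO against Control (x axis), of each tested gene in the 10 members and 7 pathway lists, with genes past the edgeR threshold in red and the median of each list as a bar. The medians of the regulator lists lie near 0. That of the CREB target genes lies at -0.41, with 11 of 28 genes called beside 6.39% of all genes tested.

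Part of the genes that CREB is known to switch on were lower in CBP-ifKOs. Of 30 listed CREB target genes 28 were tested. Of these, 11 (39.3%) were lower and 0 were higher, beside 4.99% lower and 1.4% higher of all genes tested. Log2 fold changes were below 0 in 27 of 28. The median was -0.41, against -0.003 over all genes tested and -0.10 in the 10 factors and coactivators. Of the 28, 5 are on the study's own list of lower genes, which was drawn partly from these samples, and are not independent evidence of direction. All 5 were called. Among the 23 others 6 were called (Fosb, Nr4a2, Per1, Dusp1, Sst and Vgf), with a median of -0.32 over the 23. The study listed only genes retrieved in each of its RNA-seq screens of CBP-ifKOs, so these 6 did not meet that rule. The whole list was chosen with earlier results of these data known, so these 23 are not independent evidence either. None of the 10 factors and coactivators is on the study's list.

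The neuropeptide precursor Pdyn had a log2 fold change of -1.42 and Penk, that of the enkephalins, one of -1.26. Penk shares 14.3% of its exon bases with A830012C17Rik on the other strand. Nptx2, a secreted pentraxin of excitatory synapses, had a log2 fold change of -1.19, the activator protein gene Fosb one of -1.03 (edgeR adjusted p 0.0349) and the secreted neuropeptide precursor gene Vgf one of -0.78 (0.00904). The other 6 called genes, named after their values were seen, were Bdnf (-0.66), Dusp1 (-0.64), Pcsk1 (-0.60), Nr4a2 (-0.56), Sst (-0.51) and Per1 (-0.46). Bdnf, which encodes brain-derived neurotrophic factor, has 14.4% of its exon bases under Gm45346 on the other strand. Single libraries decided some of these calls. Fosb was not called without Control library 2 or 3 or CBP-ifKO library 1 or 2 (edgeR adjusted p 0.0578 to 0.187), Vgf and Nr4a2 without CBP-ifKO library 2 (0.0889 and 0.0559) or 3 (0.0538 and 0.0521), Dusp1 without Control library 2 or CBP-ifKO library 1 or 2 (0.0589 to 0.122), and Per1 without Control library 1 or 3 or CBP-ifKO library 2 or 3 (0.0577 to 0.141). Vgf, still called, was at -0.50 without Control library 2 and at -0.48 with GC and length trends removed, and Per1 was at -0.27 without CBP-ifKO library 2. DESeq2 called 9 of the 28, and over the alternatives the count ran from 6 (without CBP-ifKO library 2) to 15. Vgf was not past the DESeq2 threshold (adjusted p 0.0994), Per1 was not with GC and length trends removed (edgeR adjusted p 0.150), and DESeq2 gave no adjusted p for Fosb. The summed subfield markers given above were also lower in CBP-ifKOs. Their log2 fold changes ran from -2.22 to 0.22, with 7 of 8 below 0. Among them is C1ql2, whose transcript the study itself reports as reduced in CBP-ifKOs, so the sum is no neutral measure of subfield content. The part of subfield content in the values of the target genes was not tested.

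Target genes of ATF4 numbered 26 tested of 28, with 1 lower, 0 higher and a median of -0.03. The share called was 3.85%, beside 6.39% of all genes tested. The 1 called was Psph, an enzyme of serine synthesis, between 14.0 and 15.2 CPM in Control libraries and between 10.2 and 11.8 CPM in CBP-ifKO libraries (log2 fold change -0.44, edgeR adjusted p 0.0334). Of its exon bases 10.4% overlap Cct6a on the other strand, and in 8 of 16 alternatives it was no longer called: DESeq2 (adjusted p 0.0694), library totals only (0.0557) and the omission of any 1 of the 6 libraries (0.0632 to 0.154).

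Promoter sequences were searched for the CRE to place members and targets side by side. The windows, 250 bases before to 50 after a transcript's start, come from RefSeq (GRCm38.p6), and 8 of the 10 genes matched one, Crem and Crtc2 being the exceptions. The palindromic element TGACGTCA occurred in 588 of 32851 windows (1.79%), and TGACG, the shorter site it contains, occurred on either strand in 6837 (20.8%). Of the 8 genes 1, Creb5, held the full element, and Atf1 and Atf4 held the shorter site alone. The lines below show the full element of Creb5 and the short sites of Atf1 and Atf4, read 5′ to 3′ in the direction of transcription, with the motif (or its reverse complement CGTCA) in capitals. Positions count the first transcribed base as 1 and give the first base of the motif.
Creb5 at -45, chr6:53287238-53287285, plus strand: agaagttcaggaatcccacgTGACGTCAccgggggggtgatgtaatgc
Atf1 at -90, chr15:100227749-100227793, plus strand: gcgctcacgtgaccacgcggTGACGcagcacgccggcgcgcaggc
Atf4 at -12, chr15:80255152-80255196, plus strand: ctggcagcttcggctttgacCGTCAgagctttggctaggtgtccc
Atf4 at 41, chr15:80255204-80255233, plus strand: cttgtaagacaccggaaattCGTCAacgag

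None of these 3 genes was past the threshold. Among the target genes, the windows of Sst, Pcsk1, Dusp1 and Scg2 held the full element. Among the called targets with the largest changes, Fosb held the short site alone. For Pdyn, Penk, Nptx2 and Vgf neither site was found. Genes without a matched window were not searched, and whether Pdyn, Penk, Nptx2 and Vgf had one is not given here. The lack of a match thus does not show that these genes lack the element. A link between the element and the changes was not tested. The sites shown next were picked for holding the element and not as typical of the targets.
Sst at -48, chr16:23890865-23890912, minus strand: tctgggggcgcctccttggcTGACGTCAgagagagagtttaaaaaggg
Pcsk1 at -78, chr13:75089759-75089806, plus strand: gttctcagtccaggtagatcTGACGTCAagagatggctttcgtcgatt
Dusp1 at -143, chr17:26508588-26508635, minus strand: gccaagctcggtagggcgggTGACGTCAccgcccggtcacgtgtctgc
Scg2 at -68, chr1:79440067-79440114, minus strand: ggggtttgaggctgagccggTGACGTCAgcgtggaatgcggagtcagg

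Sst, the somatostatin gene, was at 67.9, 86.5 and 74.7 CPM in Control libraries and 56.9, 51.3 and 53.2 CPM in CBP-ifKO (edgeR adjusted p 0.00154). Pcsk1, a convertase that processes neuropeptides, was at 41.4, 43.1 and 47.7 CPM in Control libraries and 29.9, 30.0 and 27.0 CPM in CBP-ifKO (edgeR adjusted p 4.20e-04). Both were lower in every CBP-ifKO library, as was Dusp1, a phosphatase of MAP kinases, at 8.17, 9.10 and 7.24 CPM in Control libraries and 5.14, 4.86 and 5.84 CPM in CBP-ifKO (edgeR adjusted p 0.0218). The interneuron markers, among which Sst was not counted, summed to 467 to 479 CPM in Control libraries and 431 to 461 CPM in CBP-ifKO libraries. Their part in the Sst value was not tested. Interneurons lie outside the action of the driver and keep an intact Crebbp, and bulk RNA does not tell which cells carried the Sst difference. Scg2, a granin of secretory vesicles, was also lower in every CBP-ifKO library but was not past the threshold (log2 fold change -0.16, edgeR adjusted p 0.139). Another target gene with the full element, Cartpt, was below the filter on low counts.

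Across the transcriptome, genes with and without the full element were called at similar shares. Of 395 tested genes with TGACGTCA in the window, 29 were called (7.34%), 22 of them lower (5.57%) and 7 higher (1.77%), with a median log2 fold change of 0.01. Of 11249 tested genes with a window that lacks it, 7.15% were called and 5.57% were lower. With the short site, 240 of 3942 genes were called (6.09%), against 7.70% without it. A match in a window is a description of sequence and says nothing of binding.

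Leaving out 1 library at a time moved the smaller values of the 10 genes by a large part of their size. Creb1 ran from 0.0095 (without Control library 3) to 0.098 (without Control library 1) on the log2 scale, Crem from 0.060 to 0.22 (without CBP-ifKO libraries 1 and 3, each in turn) and Creb3 from 0.021 to 0.20 (Control libraries 1 and 2). Crtc3 ran from -0.24 to -0.045 (Control library 2 and CBP-ifKO library 2), Creb5 from -0.29 to -0.090 (Control libraries 1 and 3), Atf1 from -0.23 to -0.11 and Atf4 from -0.17 to -0.083. None of these genes was called in any of these fits.

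**Figure D5:**
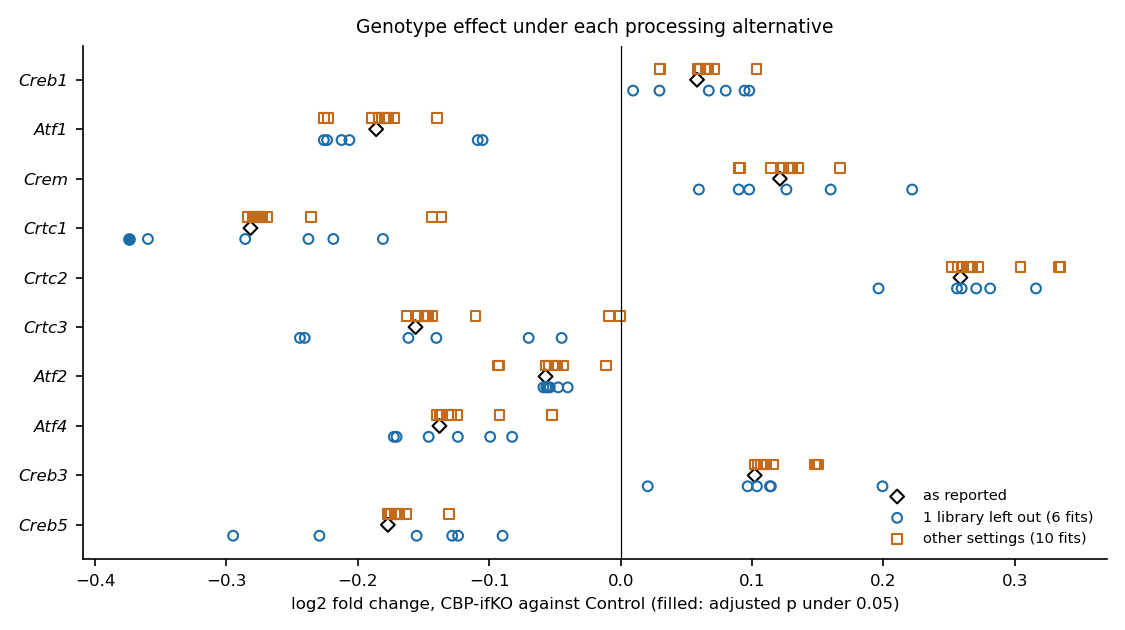
Log2 fold change, CBP-ifKO against Control (x axis), of each of the 10 genes as reported (diamond), with 1 library left out (circles, 6 fits) and under 10 other settings (squares), filled where the adjusted p is under 0.05. Each gene keeps its side of 0 in all 16 alternatives, though Crtc3 and Creb1 come close to 0 in some, and only Crtc1 passes the threshold in any.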

How the data were processed

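Hippocampal RNA-seq was analysed from 6 libraries, 3 Control and 3 CBP-ifKO, grouped and numbered by their titles. Each is a pool of animals, so p-values measure the spread between these pools. The values the authors deposited are raw counts per gene, with an exonic length. Per the submitters' processing notes and the methods, reads (single-end) were checked with FastQC 0.11.8, trimmed with Trim Galore 0.6.4, aligned with STAR 2.6.1 to mm10 (GRCm38), filtered on mapping quality and counted over exons of Ensembl genes with Rsubread. Strand use in counting is not given in the sources used here.

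The counts were scaled by TMM and fitted with edgeR's quasi-likelihood test (edgeR 4.0.16, R 4.3.3) on genotype after the default filter on low counts (minimum count 10, minimum total 15), with Benjamini-Hochberg adjustment over all 17981 genes tested and a threshold of 0.05. The standard error is the size of the log2 fold change divided by the square root of F, and intervals are at 95%. RPKM was computed from TMM-scaled CPM and the deposited length. Of 55471 identifiers, 55230 matched GENCODE for GRCm38 and took symbols and coordinates from it; where a symbol had several entries (Ddit3), the longest was used. Spread within groups was compared with genes within 0.5 on the log2 CPM scale. DESeq2 1.42.0 and limma-voom (limma 3.58.1), other scaling factors, filters, removal of GC and length trends (splines, 5 degrees of freedom), a replicate block and leaving out each library were the alternatives. In a test, counts were drawn for the 17981 genes tested, 200 of them changed by 1 on the log2 scale. After the filter was applied to the drawn counts, 17700 genes remained. edgeR recovered 83.5% of the 200, with 10.7% of 187 calls false. That false share is above the threshold of 0.05. The change drawn is larger than any of the 10 genes showed (-0.28 to 0.26), so the recovery does not apply to changes of their size.

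The 10 genes, the 7 pathway lists and the 10 marker lists were chosen with earlier results of these data known, so that no p over a list is given. Named genes were the 10, Crebbp, Ep300 and Esr1, up to 5 genes past the threshold per list by size of change, and the 3 nearest profiles to Creb1 and to the gene with the largest change. Replicates of a group differed by more than sampling noise (chi-square per degree of freedom at least 2.46). The common coefficient of variation was 6.81%, and counting error adds to it for transcripts at a few CPM.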

Additional observations from a re-analysis of the deposited data

How the results depend on the processing

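The log2 fold changes of the 10 genes kept their sign in all 16 alternatives, though Crtc3 lay at 0 in effect with block and offsets (-0.00027), and 9 of the 10 stayed short of the threshold in each. Crtc1 passed it in the absence of a count filter (-0.27) and with the replicate block (-0.28), and ran from -0.37 to -0.18 with 1 library left out, so that 1 of the 10 genes was called in these 2 settings and 0 to 1 with 1 library left out. Replicate numbers did not pair the samples (correlations of deviations 0.077, 0.037 and 0.0022), and with the block 1210 genes were called. With the block and GC and length offsets together there were 1839 calls in all and 27 in the pathway lists, against 1149 and 17. Leaving out 1 library gave 498 to 1326 calls in all, lowest without CBP-ifKO library 2 (498), CBP-ifKO library 3 (526) or Control library 3 (546), 10 to 18 in the pathway lists and 10 to 26 among genes with a CRE, where the short site gave 240. DESeq2 called 953 genes and limma-voom 1155. Lower genes made up 78.1% of calls, but 56.5% with library totals only (514 higher, 667 lower), 66.2% with offsets (371 and 727) and 61.0% with block and offsets (717 and 1122). With library totals only, the medians of the CREB kinases and the CRTC regulators were -0.0096 and -0.063. Leaving out 1 library moved list medians within -0.26 to -0.0077 (other CREB/ATF family), -0.090 to -0.0079 (CREB kinases), -0.12 to -0.079 (CRTC regulators) and -0.091 to -0.0012 (ATF4 targets). Sp3 turned to -0.0091 with offsets, to -0.0080 with block and offsets, and ran from -0.013 to 0.093 with 1 library left out. Ep300 was called in 1 alternative, block and offsets together (0.24, edgeR adjusted p 0.0113). The cause of these shifts was not tested. Depth limits Atf1 and Creb5 most, with standard errors of 0.15.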
